A study of Homo sapiens with 3 samples.

Results

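Genes of acute-phase, antiprotease and complement proteins (SAA1, SAA2, SAA4, LCN2, PI3, SLPI, C3 and CFB) were followed in RNA-seq libraries of MTAC-P. This cell line was derived from the human lung cancer line PC9 and resists inhibitors of the EGFR tyrosine kinase. These 8 genes, of 26562 in the files, were chosen by name with their levels in these libraries already known, so their levels and differences are given as descriptions with no test. The control library came from MTAC-P cells with a short hairpin against luciferase (1 library), and 2 libraries, labelled shBCAT1 1 and shBCAT1 2, came from MTAC-P cells with a short hairpin against BCAT1, the cytosolic branched-chain aminotransferase. All cells were grown in DMEM with fetal bovine serum, and total RNA was taken. Whether both shBCAT1 libraries carry the same hairpin, were made from separate cultures, or descend from 1 clone is not given in the labels, so any spread between them may be technical. The values are FPKM, fragments scaled by transcript length and by the number of mapped fragments, summed over the entries of a gene, each with a lower and an upper bound that cover counting error only.

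The target gene did not bear out the labels, since its value was not lower than that of the control in either shBCAT1 library. Its mean was low, at 0.503 FPKM. Bounds were 0.129 to 0.297 FPKM in the control and 0.158 to 0.325 FPKM in the library labelled shBCAT1 2, which would also allow a lower level there. BCAT1 stood at 0.213 FPKM in the control, 1.05 FPKM in the library labelled shBCAT1 1 and 0.241 FPKM in the library labelled shBCAT1 2, so it lay above the control's bounds in the first and overlapped the control's bounds in the other. Each direction below is therefore between libraries as labelled. The 3 libraries held 3729 to 4076 genes at 1 FPKM or more. Epithelial markers were present in all of them, with KRT7, KRT8, KRT18 and KRT19 between 87.7 and 410 FPKM and EPCAM between 3.28 and 3.91 FPKM, while the lung adenocarcinoma markers NKX2-1, NAPSA and SFTPB reached at most 0.224 FPKM and SFTPA1 and SFTPC were listed at 0.

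Serum amyloid A proteins are small apolipoproteins that the liver secretes in the acute phase of inflammation and that epithelial cells also make. Lipocalin 2 and the antiproteases elafin and secretory leukocyte protease inhibitor are secreted at epithelial surfaces, where they limit bacterial iron uptake and neutrophil proteases. Complement C3 and factor B form the convertase of the alternative pathway. Many of these genes are induced by IL-1, IL-6, IL-17 or TNF through NF-kB, STAT3 and C/EBP factors.

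Between the control and the library labelled shBCAT1 1 the bounds of every gene but SLPI overlapped. SLPI was lower there, at 60.6% of the control. In the library labelled shBCAT1 2 all but SAA4 were lower than in both. None of the 8 genes differed by at least 2-fold with bounds apart between the library labelled shBCAT1 1 and the control, where 0.797% of the 3889 genes whose mean reached 1 FPKM were called lower and 0.154% higher. Between the library labelled shBCAT1 2 and the control, 7 of the 8 were lower by this rule and 0 higher, beside 1.75% and 1.36% of the 3889 genes. Between the library labelled shBCAT1 2 and that labelled shBCAT1 1, 6 were lower and 0 higher, beside 0.617% and 1.52% of all genes. These shares are the background of counts that the choice of the genes already fixed. Together the 8 genes held 194 FPKM in the control, 169 FPKM in the library labelled shBCAT1 1 and 21.5 FPKM in the library labelled shBCAT1 2, which is 0.36%, 0.381% and 0.0465% of the library's summed FPKM.

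**Figure D1:**
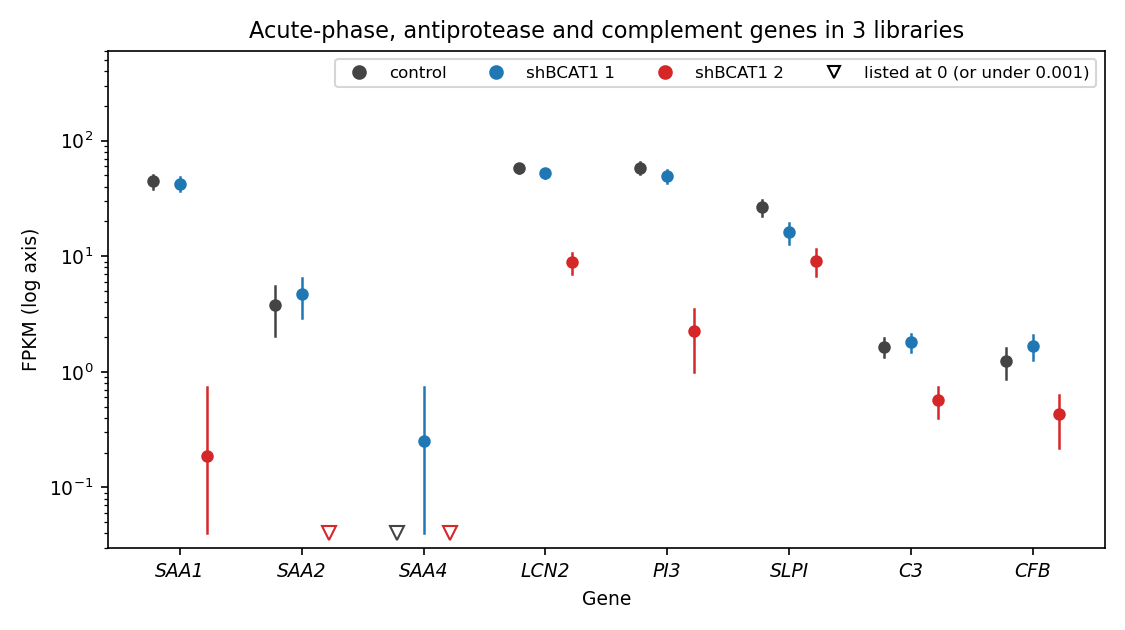
Level of each gene in FPKM on a log axis in the control (grey), the library labelled shBCAT1 1 (blue) and the library labelled shBCAT1 2 (red), with lines for the bounds of counting error (a lower bound of 0 ends near the foot of the axis) and open triangles for values listed at 0 or under 0.001 FPKM. The bounds of the grey and blue points overlap for every gene except SLPI, SAA4 has a grey triangle and a blue point at 0.253 FPKM, and the red point is the lowest for every gene except SAA4.

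Among the serum amyloid A genes, SAA1 had by far the highest level. SAA1 (hg38, chromosome 11, 18266261 to 18269976) encodes an inducible acute-phase protein carried on high-density lipoprotein, and it had 44.4 FPKM (bounds 38.4 to 50.5) in the control, 42.4 FPKM (36.5 to 48.3) in the library labelled shBCAT1 1 and 0.186 FPKM (0 to 0.737) in the library labelled shBCAT1 2. The first 2 libraries overlapped and the last lay apart from both, at 0.419% of the control, with its upper bound at 1.66% of the control's value. The difference in log2(FPKM + 1) from the control was -0.07 in the library labelled shBCAT1 1 and -5.26 in that labelled shBCAT1 2. Of its 3 RefSeq transcripts, 1 carried nearly all of the signal, at 44.0, 41.1 and 0.186 FPKM in the same order.

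SAA2 (main entry at chromosome 11, 18245228 to 18248674), the second inducible serum amyloid A gene, was at 3.78 FPKM (2.05 to 5.51) in the control and 4.7 FPKM (2.89 to 6.51) in the library labelled shBCAT1 1, and it was listed at 0 in the library labelled shBCAT1 2. Its value in the control rested on about 19 fragments, as read from the width of its bounds, and a value of 0 has bounds of 0 in these files, so the depth behind that 0 is unknown. SAA1 was 11.8 times as high as SAA2 per length in the control and 9.01 times in the library labelled shBCAT1 1. SAA4 (chromosome 11, 18231355 to 18236837), whose product is made constitutively by the liver, was under 0.001 FPKM in the control, at 0.253 FPKM (0 to 0.736) in the library labelled shBCAT1 1 and listed at 0 in the library labelled shBCAT1 2. Its mean was below the minimum of 1 FPKM, and its lower bound was 0 in every library. The read-through transcript SAA2-SAA4, a separate entry, was at 0.712, 0.369 and 0 FPKM.

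SAA1 and SAA2 are near-identical copies, so the split of fragments between them is uncertain while their sum is less so. Their coding sequences, both 369 bases, differed at 11 bases (97% identical), and the longest identical run was 186 bases. Of 514 windows of 50 bases in the SAA2 transcript, 193 (37.5%) were found unchanged in a SAA1 transcript, and 0 of 678 in that of SAA4. The 120 coding bases that hold 10 of the 11 differences (coding bases 204 to 323, reference transcripts of GENCODE release 29) are printed to show where a fragment can tell the genes apart, with the differing bases in capitals.
SAA1: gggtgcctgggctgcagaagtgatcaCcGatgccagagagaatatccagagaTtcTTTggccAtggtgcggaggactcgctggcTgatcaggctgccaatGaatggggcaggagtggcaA
SAA2: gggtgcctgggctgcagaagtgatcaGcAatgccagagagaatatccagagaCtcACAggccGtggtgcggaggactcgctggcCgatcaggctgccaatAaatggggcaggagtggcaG

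LCN2 (chromosome 9, 128149453 to 128153455) encodes lipocalin 2, which withholds iron from bacteria by binding their siderophores. It was at 57.8 FPKM (52.8 to 62.8) in the control, 52.4 FPKM (47.7 to 57.0) in the library labelled shBCAT1 1 and 8.87 FPKM (6.997 to 10.7) in the library labelled shBCAT1 2. The last value was 15.3% of the control, a 6.52-fold lower level, and 5.91-fold lower than in the other library labelled shBCAT1, while the other two libraries overlapped. The difference from the control was 18.4 times its counting error in the library labelled shBCAT1 2 and 1.59 times in that labelled shBCAT1 1. About 90 fragments stood behind the lowest value.

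Of the 8 genes, 3 had an entry in a table of RefSeq promoters on GRCh38.p14 (250 bases before to 50 after the start): LCN2, CFB and SAA4. They were searched on both strands for GGG followed after 5 bases by CC (an NF-kB type motif, in 58.7% of all 35116 promoters of this length), TTNNGNAA (a C/EBP type motif, 36.8%), TTCNNNGAA (a STAT type motif, 7.66%) and TATAAA (11.5%). The LCN2 promoter (chr9:128149203-128149502, plus strand) is printed because LCN2 was among the most abundant of the 8 genes in every library, with matches in capitals.
LCN2: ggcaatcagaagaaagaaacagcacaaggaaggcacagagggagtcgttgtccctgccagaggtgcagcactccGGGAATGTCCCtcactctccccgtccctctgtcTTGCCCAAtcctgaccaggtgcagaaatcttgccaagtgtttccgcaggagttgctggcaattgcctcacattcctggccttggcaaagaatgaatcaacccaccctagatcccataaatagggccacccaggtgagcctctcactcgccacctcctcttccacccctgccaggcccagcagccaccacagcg
It held an NF-kB type match 176 bases before the start, whose letters also match on the other strand with a shift of 1 base, and a C/EBP type match on the minus strand 143 bases before it. Such a match describes the letters and is not evidence of binding.

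The antiproteases PI3 and SLPI share a whey acidic protein (WAP) fold and lie in the same cluster on chromosome 20, 75695 bases apart. PI3 (45174899 to 45176544) encodes elafin, an inhibitor of neutrophil elastase and proteinase 3. It was at 58.4 FPKM (51.8 to 65.1) in the control, 49.4 FPKM (43.3 to 55.4) in the library labelled shBCAT1 1 and 2.26 FPKM (1.00 to 3.51) in the library labelled shBCAT1 2. PI3 thus had the highest level of the 8 genes in the control and 3.86% of that level in the library labelled shBCAT1 2, where it was 25.9-fold lower than in the control and 21.9-fold lower than in the library labelled shBCAT1 1. The bounds correspond to 309, 269 and 13 fragments in the 3 libraries.

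SLPI (45252239 to 45254564) encodes the secretory leukocyte protease inhibitor, which blocks elastase and cathepsin G. Its values were 26.5 FPKM (22.3 to 30.8) in the control, 16.1 FPKM (12.8 to 19.3) in the library labelled shBCAT1 1 and 9.15 FPKM (6.77 to 11.5) in the library labelled shBCAT1 2. SLPI was the only 1 of the 8 genes whose bounds in the library labelled shBCAT1 1 lay apart from those of the control, at 60.6% of it, which is 3.92 times the counting error. It stood at 34.5% of the control value in the library labelled shBCAT1 2, and the bounds of all 3 libraries lay apart. Its level in the library labelled shBCAT1 2 was 1.76-fold lower than in that labelled shBCAT1 1, short of 2-fold.

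The complement genes had low levels, with the highest value in the library labelled shBCAT1 1 and the lowest in that labelled shBCAT1 2. C3 (chromosome 19, 6677835 to 6720682), the central component of all complement pathways, was at 1.65 FPKM (1.35 to 1.94) in the control, 1.81 FPKM (1.499 to 2.11) in the library labelled shBCAT1 1 and 0.57 FPKM (0.402 to 0.738) in the library labelled shBCAT1 2. CFB (chromosome 6, 31945944 to 31952084), the protease subunit of the alternative convertase, was at 1.23 FPKM (0.866 to 1.60), 1.68 FPKM (1.25 to 2.10) and 0.428 FPKM (0.22 to 0.636). For both, the control and the library labelled shBCAT1 1 overlapped and the library labelled shBCAT1 2 lay apart from each, at 34.6% of the control for C3 and 34.7% for CFB. About 122, 138 and 46 fragments stood behind the values of C3 and 45, 63 and 17 behind those of CFB. All of the CFB signal lay on the chromosome 6 reference sequence, and its 6 entries on alternative sequences were listed at 0.

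The CFB promoter (chr6:31945845-31946144, plus strand, RefSeq on GRCh38.p14) is printed beside that of LCN2 because both genes were lower in the same library. Its start lies 151 bases inside the locus of the deposited tables.
CFB: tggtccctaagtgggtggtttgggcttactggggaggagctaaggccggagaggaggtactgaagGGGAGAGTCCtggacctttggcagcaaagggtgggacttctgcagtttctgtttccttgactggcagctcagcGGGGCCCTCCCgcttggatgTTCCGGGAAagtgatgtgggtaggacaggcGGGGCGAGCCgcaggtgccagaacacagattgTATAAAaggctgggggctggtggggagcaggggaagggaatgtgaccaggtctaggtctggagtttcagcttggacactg
In CFB, 4 NF-kB type matches were found, of which 2 overlap with a shift of 1 base, beginning 185, 112, 111 and 62 bases before the start, with a STAT type match at 92 bases and TATAAA at 30 bases before it. The SAA4 promoter held 6 C/EBP type matches and none of the other motifs. These matches too describe the letters and are not evidence of binding. Whether the LCN2 and CFB promoters bear on the lower levels of these genes was not tested.

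The order of the genes by level differed between libraries. In the control PI3 and LCN2 led and overlapped, followed by SAA1, SLPI and SAA2, each with bounds apart from the gene before it, then C3 and CFB, which overlapped. In the library labelled shBCAT1 1 the bounds of LCN2, PI3 and SAA1 overlapped one another, and those of C3 and CFB did as well. In the library labelled shBCAT1 2 SLPI and LCN2 led and overlapped, PI3 followed, then C3, CFB and SAA1 with overlapping neighbours, and SAA2 and SAA4 came last, both listed at 0. Among 26221 genes ranked by FPKM, PI3 went from place 142 in the control to 2193 in the library labelled shBCAT1 2, SAA1 from 173 to 9059, LCN2 from 145 to 590 and SLPI from 251 to 567.

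With a mean of 1 FPKM or more, 7 of the 8 genes entered the fit across genes, SAA2, C3 and CFB through the control and the library labelled shBCAT1 1. The SD of the libraries labelled shBCAT1 exceeded their mean for 5 of the 8 genes, for example 21.3 ± 29.8 FPKM for SAA1 (SD, n = 2) and 25.8 ± 33.3 FPKM for PI3 (SD, n = 2). The fitted difference of both libraries from the control was -2.66 ± 2.26 (SE) in log2(FPKM + 1) for SAA1 and -2.21 ± 1.72 for PI3. For LCN2 it was -1.36 ± 1.07, and for SLPI -1.06 ± 0.37. SLPI lay below the bounds of the control in both libraries, while the other 6 genes did so in the library labelled shBCAT1 2 and overlapped the control in the other. The median difference of the 7 genes was -0.07 in the library labelled shBCAT1 1, beside -0.12 over all 3889 genes, and -2.26 in the library labelled shBCAT1 2, beside 0.01.

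**Figure D2:**
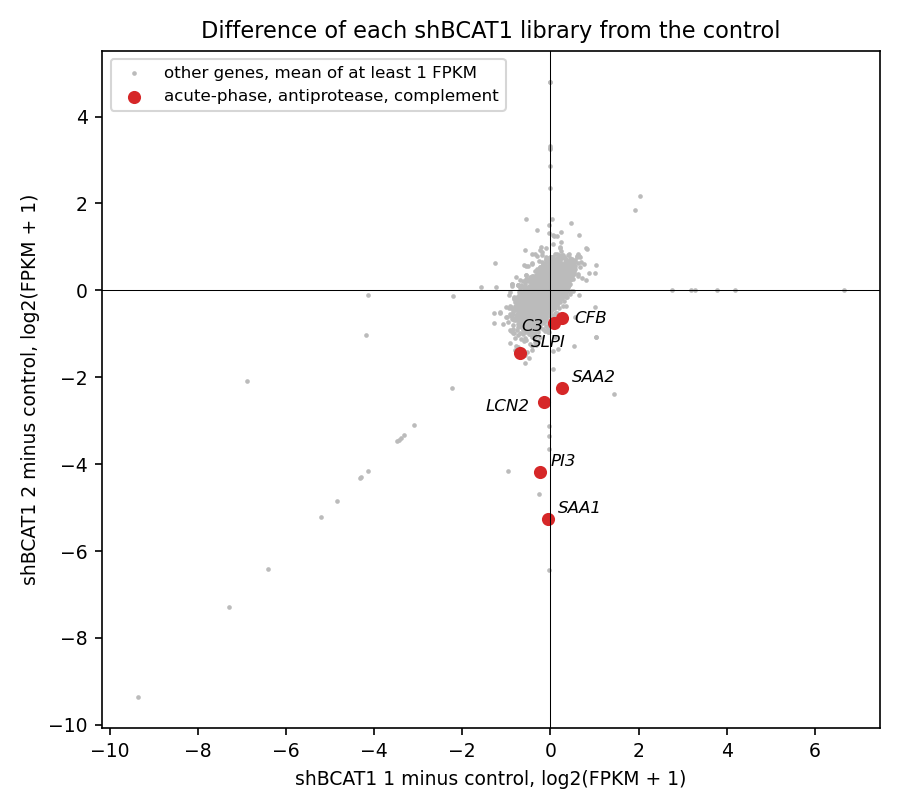
Difference in log2(FPKM + 1) from the control value in the library labelled shBCAT1 1 (horizontal) and shBCAT1 2 (vertical) for the genes whose mean reached 1 FPKM. Both axes share the 1 control library; SAA1, PI3, LCN2 and SAA2 lie near 0 on the horizontal axis and between -5.26 and -2.26 on the vertical axis, and points on the lower diagonal are entries listed near 0 in both libraries.

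Transcript length moved with the differences. Genes with transcripts under 1000 bases had a median difference of -0.34 in the library labelled shBCAT1 1 and -0.33 in that labelled shBCAT1 2, beside -0.05 and 0.11 for transcripts of 2000 bases or more. SAA1, SAA2, LCN2, PI3 and SLPI have transcripts of 570 to 822 bases. In the library labelled shBCAT1 2 the share of genes under 1000 bases called lower was 5.68% of 599. That share includes these 5 genes, and the class also holds small RNA loci, such as MIR6087 with 49 bases. C3 and CFB, with 5263 and 2862 bases, belong to the longer class, of which 0.677% of 1920 were called lower, both genes included. The part of length in the differences of the 8 genes was not tested.

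**Figure D3:**
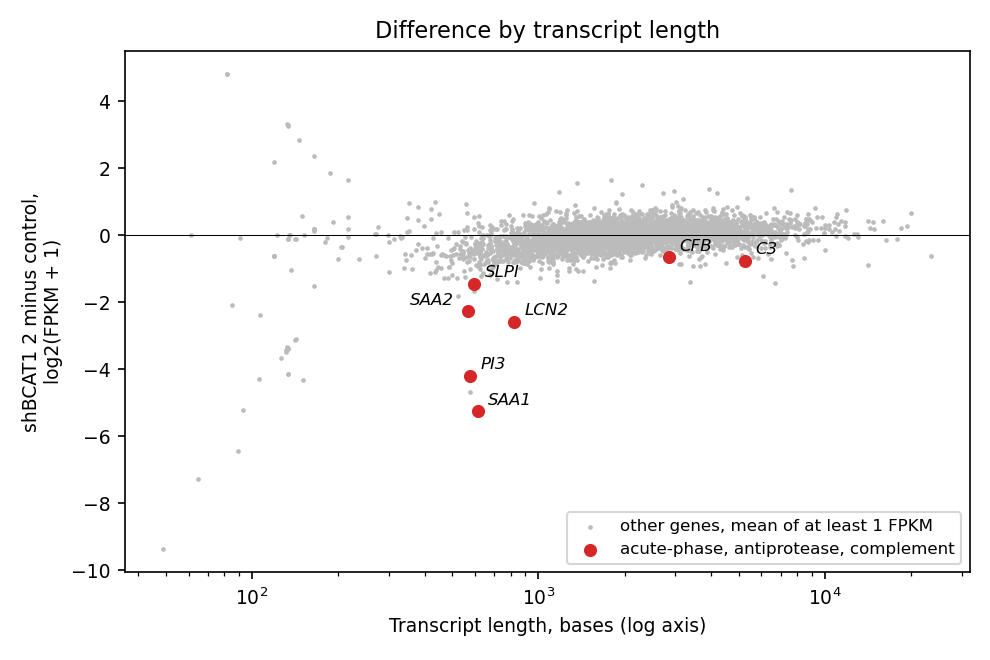
Difference in log2(FPKM + 1) between the library labelled shBCAT1 2 and the control against transcript length in bases on a log axis, for the genes whose mean reached 1 FPKM. SAA1, PI3, LCN2, SAA2 and SLPI lie at 570 to 822 bases with differences of -5.26 to -1.44, and C3 and CFB at 5263 and 2862 bases with -0.75 and -0.65.

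Genes averaging 10 FPKM or more, 530 in all, were ranked by the ratio of the library labelled shBCAT1 2 to the control. SAA1, PI3, LCN2 and SLPI took places 6, 8, 9 and 12 from the lowest. They were chosen with these levels known, so their places are a description and no evidence of rarity. The places before SAA1 were held by small RNA entries listed at 0. S100A9, a subunit of calprotectin, stood between SAA1 and PI3, at 45.8 FPKM in the control, 38.2 FPKM in the library labelled shBCAT1 1 and 0.815 FPKM in the library labelled shBCAT1 2. By distance in the 2 differences from the control, over 3 libraries and 3712 genes other than the 8, S100A9 was the nearest gene to SAA1 (0.60) and to PI3 (0.50). S100A8, the partner of S100A9 in calprotectin, was the nearest of these other genes to LCN2 (0.80). It was at 2.49 and 2.62 FPKM and listed at 0 in the library labelled shBCAT1 2. The pseudocount of 1 limits the difference of so low a gene, here to -1.80, so this distance does not show a like fold. After S100A9 the distances were far larger for SAA1 and PI3, at 3.46 and 2.40 for S100A8 and 3.63 and 2.54 for S100A4. S100A4, another S100 gene, was next after S100A8 for LCN2 (1.00), with 34.6, 23.0 and 10.2 FPKM. TMEM132A followed it for LCN2, at 6.12, 6.42 and 1.71 FPKM. OVCA2, NQO2 and CHCHD5 were nearest to C3, within 0.08 of it, and none of them was called.

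Of 40 measured genes within 250 kb of the 8, 0 were called higher or lower in the library labelled shBCAT1 2 against the control, beside 1.36% and 1.75% of all genes, shares at which a count of 0 in 40 is no result about the neighbours. In the library labelled shBCAT1 1, 1 of the 40 was called lower, beside 0.797% of all genes, which again is no result about the neighbours. It was the mitochondrial import gene TOMM34, 214426 bases from PI3, named here for its call. LDHA, the lactate dehydrogenase gene 124413 bases from SAA1, was at 22.6 FPKM in the control, 16.2 FPKM in the library labelled shBCAT1 1 and 27.2 FPKM in the library labelled shBCAT1 2. BBLN, 6805 bases from LCN2, was at 13.5, 10.7 and 12.6 FPKM. WFDC2, a WAP gene of the same cluster as SLPI, was at 8.05, 5.85 and 6.21 FPKM, and NELFE, which borders CFB, was at 3.43, 3.32 and 3.37 FPKM.

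Genes around the 8 were read from 8 lists, which overlap in part and hold 273 genes, 43 of them with a mean that reached 1 FPKM. By limma with Benjamini-Hochberg adjustment over all 3889 genes, 0 of the 43 were lower or higher in the libraries labelled shBCAT1 (smallest adjusted p 0.797), and 1, IL18, was lower at an unadjusted p under 0.05, beside 193 of the 3889 genes. Limma called 0.36% of all genes lower and 0% higher. In the library labelled shBCAT1 2 alone, 4 of the 43 were lower than the control by 2-fold with bounds apart and 1 was higher. The shares over all 3889 genes were 1.75% lower and 1.36% higher. In the library labelled shBCAT1 1 0 were called, beside 0.797% lower and 0.154% higher over all genes. The lists were chosen with earlier results of these data known, so these counts are descriptions.

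Other epithelial genes that IL-1, IL-17 or TNF induce held 3 of the 4 lower genes, beside 1.75% of all 3889 genes called lower. Of 42 on the list, 6 were measured, and S100A9, S100A8 and SOD2 were lower in the library labelled shBCAT1 2. SOD2, the mitochondrial superoxide dismutase, was at 3.85 FPKM in the control, 4.2 FPKM in the library labelled shBCAT1 1 and 1.31 FPKM in the library labelled shBCAT1 2. TNFAIP2, a TNF-induced gene, was at 12.1, 13.0 and 10.1 FPKM, and MUC4, a membrane mucin left out for its status in the files, at 2.65, 4.62 and 4.58 FPKM. Below the minimum, and chosen after their values were seen, were 4 genes with bounds apart: the adhesion molecule ICAM1 at 1.11, 1.06 and 0.441 FPKM, CEACAM6 at 1.16, 1.13 and 0.254 FPKM, and the neutrophil chemokine CXCL1 and lymphotoxin LTB, at 0.688 and 0.825 FPKM in the control, 0.4005 and 0.500 FPKM in the library labelled shBCAT1 1 and listed at 0 in the library labelled shBCAT1 2.

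Of the transcription factors and signal carriers 10 of 38 were measured. In the library labelled shBCAT1 2, 1 of these was called lower, beside 1.75% of all 3889 genes. The gene was NFKBIA, the inhibitor that NF-kB itself induces, also named after its values were seen. It was at 2.92 FPKM in the control, 3.45 FPKM in the library labelled shBCAT1 1 and 0.537 FPKM in the library labelled shBCAT1 2. ZC3H12A, the RNase regnase-1 that degrades inflammatory messages, was below the minimum at 0.714, 0.821 and 0.243 FPKM, with bounds apart, and was likewise named after its values were seen. CEBPB, a C/EBP factor of the acute phase, was at 3.14, 3.655 and 3.39 FPKM, IKBKG, the regulatory subunit of the kinase that activates NF-kB, at 5.19, 4.51 and 5.47 FPKM, and SAFB at 2.58, 2.90 and 2.95 FPKM. IRAK1, a kinase of IL-1 receptor signalling, was at 7.58, 9.12 and 13.5 FPKM, with bounds apart between the control and the library labelled shBCAT1 2 but short of 2-fold.

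Inducing cytokines and their receptors were mostly low, with 5 of 36 measured. In the library labelled shBCAT1 2, 0 of the 5 were called, beside 1.75% lower and 1.36% higher of all genes. At such shares 0 of 5 is no result about these genes. LIF, an IL-6 family cytokine, was at 2.95, 2.86 and 4.88 FPKM, IL18 at 2.85, 1.66 and 1.63 FPKM, the IL-17 receptor chain IL17RC at 1.745, 1.61 and 1.95 FPKM, and the TNF receptor TNFRSF1A at 1.28, 1.59 and 1.87 FPKM.

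**Figure D4:**
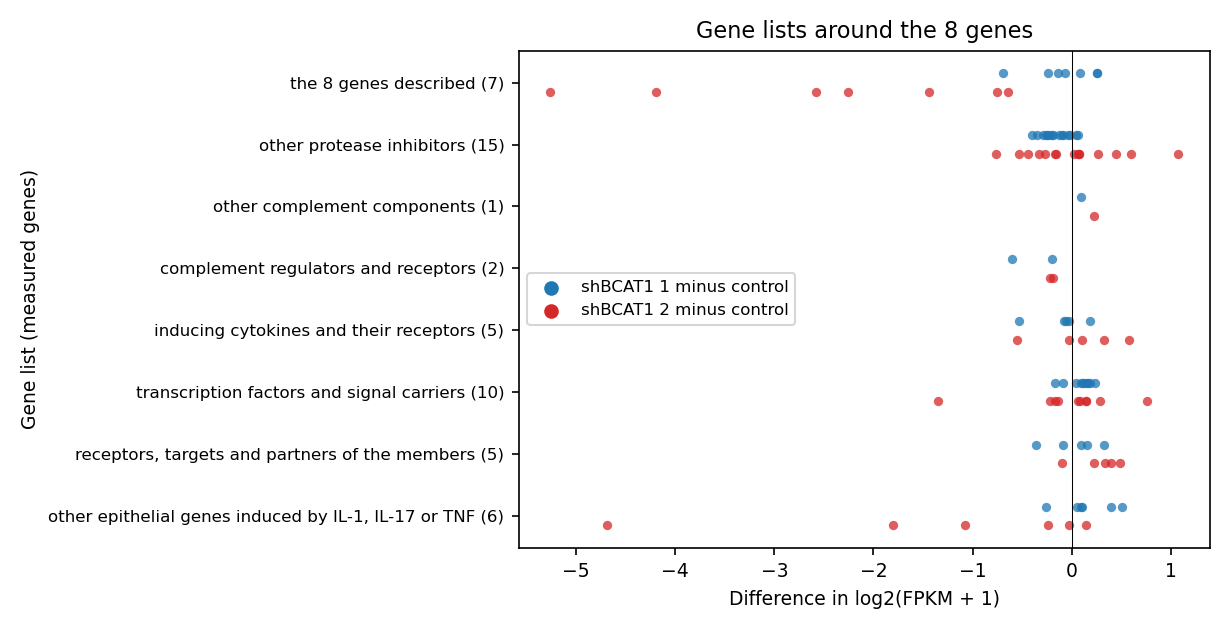
Difference in log2(FPKM + 1) from the control for each measured gene of the lists, with the library labelled shBCAT1 1 in blue, that labelled shBCAT1 2 in red and the number of measured genes in brackets. The red points below -1 belong to SAA1, PI3, LCN2, SAA2 and SLPI, to NFKBIA among the signal carriers and to S100A9, S100A8 and SOD2 among the epithelial genes.

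Protease inhibitors other than PI3 and SLPI showed 15 measured genes of 55. In the library labelled shBCAT1 2, 0 of these were called lower and 1 higher, beside 1.75% and 1.36% of all genes. The most abundant were SPINT2, an inhibitor of membrane serine proteases, at 22.2, 18.5 and 23.4 FPKM, and the cystatins, which inhibit cysteine proteases: CST3 at 19.4, 16.0 and 15.9 FPKM, CSTB at 16.6, 12.8 and 11.9 FPKM and CST6 at 12.4, 9.995 and 17.3 FPKM. The median difference of the 15 was -0.19 in the library labelled shBCAT1 1 and 0.02 in that labelled shBCAT1 2.

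Other complement genes were scarce. Of 26 other components 1 was measured, CFD, the protease that cleaves factor B, at 1.32, 1.48 and 1.72 FPKM. C1RL, C1R and C1S, proteases of or related to the classical pathway, stayed at or under 0.475 FPKM, and 15 components were listed at 0 in all libraries. Of 29 regulators and receptors 2 were measured, C1QBP at 7.68, 4.7 and 6.48 FPKM and clusterin (CLU), an inhibitor of the terminal complex, at 5.09, 4.32 and 4.36 FPKM. The membrane regulators CD59 and CD46 were at 0.717, 0.695 and 1.07 FPKM and at 0.571, 0.536 and 0.548 FPKM. None of these was called in either library. Over all genes 1.75% were called lower and 1.36% higher in the library labelled shBCAT1 2. With so few measured genes, the absence of calls is no result about complement.

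Of 27 other acute-phase proteins 0 were measured and 21 were listed at 0 in all libraries, and RBP4 had the highest mean, with at most 0.183 FPKM. Among receptors, targets and partners of the 8 proteins, 5 of 32 were measured and 0 called in the library labelled shBCAT1 2. The shares over all genes were 1.75% lower and 1.36% higher, at which 0 of 5 is no result about them. ANXA2, which has been described as binding SLPI, was at 34.6, 26.8 and 32.4 FPKM, and KLK5, a kallikrein protease, at 5.69, 5.29 and 7.81 FPKM. GRN, progranulin, which SLPI protects from cleavage, was at 2.79, 3.76 and 4.33 FPKM, and the lipoprotein receptor SCARB1 at 1.28, 1.54 and 1.875 FPKM.

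Markers of other cells that can make these proteins were at or near 0, with CD68 the exception. The summed level of 10 hepatocyte markers was at most 0.0199 FPKM in any library, with 9 listed at 0 throughout, and that of 8 fibroblast markers at most 0.259 FPKM. Of 12 leukocyte markers 1 was measured, CD68, at 3.42, 3.51 and 3.6 FPKM, and PTPRC, MPO, ELANE and FCGR3B were listed at 0. The summed level of the leukocyte markers was 3.77 FPKM in the control, 3.93 FPKM in the library labelled shBCAT1 1 and 4.13 FPKM in the library labelled shBCAT1 2. Epithelial and lung markers summed to 974, 819 and 1122 FPKM. In bulk RNA of this kind, fewer cells that express a gene and less of its RNA per cell cannot be told apart.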

How the data were processed

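The 3 RNA-seq libraries take their group from the label on the hairpin and their number from the title. The deposited values are FPKM with confidence bounds, computed by the authors one library at a time, with 1 entry per RefSeq accession and locus, per the file headers. Trim Galore, TopHat, Cufflinks and hg38 are named per the submitters' processing notes. Their versions, settings, annotation and strand handling were not found: not given in the sources used here. FPKM does not correct for a few transcripts that take much of the total.

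Of 50337 accessions, a RefSeq gene table (GRCh38.p14) named 49277 and GENCODE release 29 another 649, and 411 kept their accession. FPKM was summed over entries to 26562 genes. The upper bound was taken as 2 SDs above the value, and SDs of a gene's entries were added as squares. The squared ratio of a value to its SD was taken as its number of fragments. For the 5 genes LCN2, PI3, SLPI, C3 and CFB it lay within 0.01 of a whole number in 14 of 15 values. Over tested genes with 1 entry and a squared ratio under 1000, the share was 77.1% in the control. It was 77.5% in the library labelled shBCAT1 1 and 75.8% in that labelled shBCAT1 2. SAA1 and SAA2, with more entries above 0, were outside this check. Read totals are unknown. Genes whose mean reached 1 FPKM with status OK (3889; 341 of all genes failed the status) entered a limma fit with a trend (limma 3.58.1 under R 4.3.3) of log2(FPKM + 1), two-sided, Benjamini-Hochberg. Simulated data with known changes were used to test it. With 1 residual degree of freedom, the spread between both shBCAT1 libraries has to stand for that of the control too. A difference in log2(FPKM + 1) understates the change of low genes. Calls between single libraries are 2-fold FPKM ratios with bounds apart, with no test. Lengths come from GENCODE transcripts, and the starts of loci were moved to count from 1. Tables and plots used Python 3.11.15, pandas 2.3.3, numpy 2.4.6 and matplotlib 3.10.9.

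The 8 genes, the lists and the rules were chosen with earlier results of these data known. The rule names the 8 genes, the 4 genes of highest mean FPKM per list, measured genes within 250 kb, and the 3 genes nearest in pattern to the most abundant gene of each role, leaving out loci under 300 bases. Alternatives were pseudocounts, level filters, scalings, entries on alternative sequences left out, transcripts kept apart, a 1.5-fold rule and 1 library left out. No protein sequences were used here, and 1 list gene is not reported here.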

Additional observations from a re-analysis of the deposited data

How the results depend on the processing

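The size of the differences in the library labelled shBCAT1 2 depended on the pseudocount, which cannot change their sign: with 0.1 and 5 in place of 1, that of SAA1 went from -5.26 to -7.28 and -3.25, that of SAA2 from -2.26 to -5.28 and -0.81, that of C3 from -0.75 to -1.38 and -0.25, and that of CFB from -0.65 to -1.34 and -0.20. Quantile normalization gave -4.70 for SAA1, -2.26 for LCN2, -3.96 for PI3 and -1.24 for SLPI. The count of 7 called genes was also 7 with median-of-ratios scaling and with transcripts kept apart, and primary sequences alone left the differences of the 8 genes as they were. Against the library labelled shBCAT1 1 the count of 6 became 7 at 1.5-fold, with SLPI. In the library labelled shBCAT1 1 the count of 0 became 1 at 1.5-fold, SLPI. The differences of SAA1, LCN2 and PI3 there, -0.07, -0.14 and -0.24, became 0.30, 0.34 and 0.23 with quantile normalization and 0.09, 0.02 and -0.08 with median-of-ratios scaling. Median-of-ratios scaling moved the median of all genes in that library from -0.12 to -0.01, and quantile normalization to 0.02. Limma's 14 calls became 0 with no filter on level, 8 at a minimum mean of 5 FPKM, 7 with transcripts kept apart and 1 with loci under 300 bases left out. Without replicate 1 or 2 of the libraries labelled shBCAT1 no spread is left to test, and the difference of SAA1, -2.66 over both, was -5.26 or -0.07, that of PI3, -2.21 over both, -4.19 or -0.24, and that of LCN2, -1.36 over both, -2.58 or -0.14. No paired analysis was possible because the control has 1 library and its label carries no replicate number. Values of C3 and CFB in the library labelled shBCAT1 2 rest on 46 and 17 fragments. For SAA1 the same measure gave 0.457, a figure that takes in the SDs of its transcripts near 0 and is no fragment count. Its main transcript alone had 0.186 FPKM with an SD of 0.186 FPKM there.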
